A study of Bos taurus with 22 samples.

Results

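The 10 genes described here belong to the Wnt pathway or mark the crypt stem cell, and were followed through RNA-seq libraries of the jejunal mucosa of 22 Holstein steers. They were found by gene symbol in the deposited table of gene counts, where 10 of 10 were present among 27570 genes. LGR5, ASCL2 and SMOC2 mark the stem cells at the crypt base, AXIN2 is a feedback target of the pathway, WNT11 is a ligand, FZD5 and FZD3 are receptors, CTNNB1 encodes β-catenin, TCF7L2 is the nuclear factor that β-catenin joins, and SFRP5 is a secreted inhibitor. The study itself named several of the pathway genes after testing these same animals, so their choice is not independent evidence of a direction.

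The steers were castrated males of 220.0 to 294.1 kg. All of them received raw corn starch through an abomasal catheter at 3.94 g per kg of body weight per day for 7 d, and none of the groups went without it. The abomasal infusion also held sodium caseinate at 1.30 g per kg of body weight per day or only water. Steers were injected under the skin either with GLP-2 at 100 µg per kg of body weight per day, in a vehicle with bovine serum albumin (BSA), or with that vehicle alone. GLP-2, glucagon-like peptide 2, is a gut hormone that stimulates growth of the intestinal mucosa. Thus 5 steers were control (water and vehicle), 5 received GLP-2, 6 received casein and 6 received casein + GLP-2. The main comparisons pooled these into 11 steers given GLP-2 against 11 given BSA, and 12 given casein against 10 given water. The mucosa was scraped from a jejunal segment, so each library mixes villus and crypt epithelium with cells of the layers beneath, and fewer cells of a type and less RNA per cell cannot be told apart.

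In the intestine, Wnt ligands bind frizzled receptors on crypt cells and keep β-catenin from being degraded. β-catenin then enters the nucleus, binds factors such as TCF7L2 and turns on genes that maintain stem cells and dividing progenitors. Frizzled-related proteins such as SFRP5 bind ligands outside the cell and dampen the signal, and AXIN2 is induced by the signal and helps to destroy β-catenin.

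The libraries held 8809666 to 28447810 counts, with a median of 12028560.5. Markers of the labelled tissue were present, since each of 17 villus enterocyte genes (17 gene entries for 16 symbols) was detected in steers of both injection groups. Of these, SLC2A5, a fructose transporter, was at 0 in some BSA steers. A set of 4 BSA steers stood apart. In control blocks 1, 3 and 5 and casein block 3, the mean log2 CPM (read counts per TMM-scaled library, times a fixed factor) of 12 genes of B cell follicles was 5.93 to 6.82, against 0.10 to 3.61 in the other 18 steers. This mean is called the follicle score below. The same 4 steers had a mean log2 CPM of genes of dividing cells of 6.30 to 6.70, against 4.17 to 6.08 in the others. Their mean for villus enterocyte genes was 6.26 to 8.06, against 6.42 to 10.5. Integrity of the RNA of each steer is not given in the sources used here. The paper summarizes it over its samples only, and it left out a control sample for low integrity.

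The genes differed widely in level. On the deposited FPKM scale, which divides by gene length and library size, CTNNB1 had the highest median over the 22 steers, 69.1, and it exceeded the next gene, WNT11, in 22 of 22 steers. The medians of WNT11 and FZD5 were 18.1 and 16.4 FPKM, and WNT11 was the higher of these neighbours in only 12 of 22 steers. TCF7L2 followed with a median of 8.87 FPKM, below FZD5 in 19 of 22 steers. SMOC2, FZD3, ASCL2 and AXIN2 had medians of 4.96, 3.15, 1.81 and 1.64 FPKM, and their order was loose: ASCL2 exceeded AXIN2 in 13 of 22 steers and FZD3 exceeded ASCL2 in 13 of 22. SFRP5, with a median of 0.491 FPKM, ran from 0 to 66.6 FPKM. LGR5 was the lowest, at a median of 0.0251 FPKM and at most 0.864 FPKM.

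**Figure D1:**
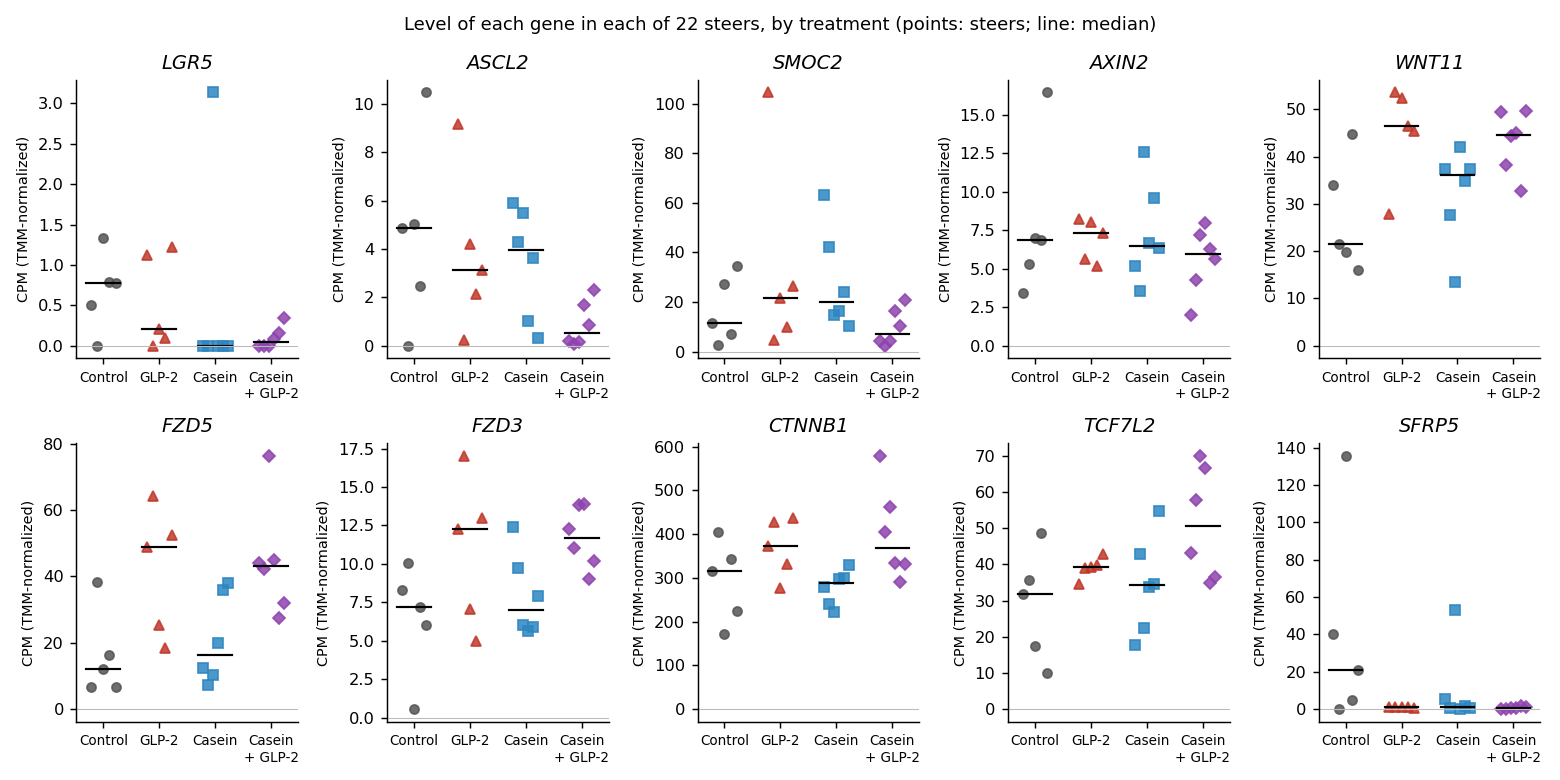
TMM-normalized CPM of each gene (vertical axis, linear and different in each panel) in each steer (points) of the 4 treatments, with the median of the treatment as a line. SFRP5 reached 20.7 to 136 CPM in 4 BSA steers and stayed at or below 1.65 CPM in the 11 steers given GLP-2, while FZD5 was higher in most steers given GLP-2.

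Under GLP-2, genes of this set passed the test, and under casein none did. Of 13928 genes tested between GLP-2 and BSA, 13.5% were called (Benjamini-Hochberg adjusted p up to 0.05 by the quasi-likelihood test of edgeR), 5.13% higher with GLP-2 and 8.37% lower. By limma on log2(FPKM + 1) the calls were 1210 higher and 882 lower, against 715 and 1166 in edgeR. Of the 10 genes, 9 had enough counts to be tested and 3 of those 9 passed. FZD5 and WNT11 rose and SFRP5 fell. CTNNB1 tended to be higher (an adjusted p above 0.05 and up to 0.1). The median log2 fold change of the 9 genes was 0.45, and that of all genes tested was 0.01. The paper had named WNT11, FZD3, FZD5, CTNNB1 and TCF7L2 as higher with GLP-2 in this study. The calls and the median of the 9 genes are therefore not independent of how the genes were chosen. For 62 other pathway and stem cell genes tested, the median was -0.04.

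WNT11, a ligand best known for signalling apart from β-catenin, was the only 1 of 4 Wnt ligands tested to pass. It lies on chromosome 15 at 55605299 to 55624948 on the reverse strand of the ARS-UCD1.2 assembly. Its level was 16.0, 19.9, 21.5, 34.0 and 44.8 CPM in the control steers and 27.9, 45.3, 46.4, 52.5 and 53.6 CPM in the GLP-2 steers. With casein it was lowest at 13.4, with a median of 36.0 and a highest value of 42.0 CPM. With casein + GLP-2 it was lowest at 32.7, with a median of 44.6 and a highest value of 49.6 CPM. Among the pooled steers, 7 of 11 given GLP-2 lay above each of the 11 given BSA, and the ranges overlapped. WNT11 averaged 44.1 ± 8.09 CPM under GLP-2 against 29.9 ± 10.8 CPM under BSA (SD, 11 steers per group). The log2 fold change was 0.57 (standard error 0.19, adjusted p = 0.0455 in edgeR's quasi-likelihood test). This call was a close one, since it was kept in 6 of the 22 fits that each left out 1 steer, and was lost with the block of the design as a covariate (adjusted p = 0.0543 in edgeR).

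FZD5 is a frizzled receptor of the intestinal epithelium. Its annotated gene is a single block of 1758 bases on chromosome 2 at 96039164 to 96040921, reverse strand. In control steers FZD5 was at 6.52, 6.67, 12.1, 16.2 and 38.4 CPM, and in GLP-2 steers at 18.5, 25.3, 48.8, 52.5 and 64.1 CPM. The casein steers ran from 7.29 over a median of 16.2 to 38.1 CPM. The casein + GLP-2 steers ran from 27.4 over a median of 43.2 to 76.4 CPM. All 11 steers given GLP-2 exceeded the median of the BSA steers, 12.5 CPM, and 7 of them exceeded every BSA steer. FZD5 averaged 43.3 ± 17.2 CPM under GLP-2 against 18.5 ± 12.8 CPM under BSA (SD, 11 steers per group). The log2 fold change was 1.25 (standard error 0.33, adjusted p = 0.0241 in edgeR), a fold change of 2.37 with a 95% interval of 0.61 to 1.89 on the log2 scale. It passed in 22 of 22 fits that left out 1 steer, and missed the threshold with the block of the design as a covariate (log2 fold change 1.24, adjusted p = 0.0509 in edgeR).

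SFRP5, a secreted inhibitor on chromosome 26 at 18914097 to 18919300 on the reverse strand, had the largest fold change of the 9 genes. The control steers held 0.176, 4.84, 20.7, 40.3 and 136 CPM. The GLP-2 steers held 0.381, 0.986, 1.04, 1.36 and 1.36 CPM. With casein the lowest, median and highest values were 0.282, 1.16 and 52.9 CPM, and with casein + GLP-2 they were 0, 0.479 and 1.65 CPM. No steer given GLP-2 reached the median of the BSA steers, 4.84 CPM, and 7 of 11 BSA steers exceeded every steer given GLP-2, while the other 4 BSA steers lay among them. SFRP5 averaged 0.797 ± 0.562 CPM under GLP-2 against 23.9 ± 41.3 CPM under BSA (SD, 11 steers per group), and the BSA spread exceeded its mean. The log2 fold change was -4.92 (standard error 1.00, adjusted p = 0.0189 in edgeR), and the call was made in 22 of 22 fits that left out 1 steer. In limma on log2(FPKM + 1) the log2 fold change was -1.74 with an adjusted p of 0.0505.

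A set of 4 steers carried most of the SFRP5 reads. Of the 3900 counts of SFRP5 in the 11 BSA libraries, 94.8% came from control blocks 1, 3 and 5 and casein block 3, which are the steers with the highest follicle scores. In the other 7 BSA steers SFRP5 was at 0.176 to 5.23 CPM with a median of 0.663. The 11 steers given GLP-2 shared 127 counts, and in 2 of these, from the casein + GLP-2 treatment, the count was 0, which allows up to 0.211 to 0.260 CPM (3 counts of the library, counting error only). When the 4 steers were left out, the log2 fold change was -1.28 (adjusted p = 0.405 in edgeR). With the follicle score as a covariate it was 0.95 (adjusted p = 1.000 in edgeR), so its sign turned. These 2 fits called no gene at all, 0 of 14285 without the 4 steers and 0 of 13928 with the score. The 12 follicle genes summed to 34.3 to 89.5 CPM in steers given GLP-2 and to 53.8 to 2266 CPM in BSA steers. All 10 of them that were tested were lower with GLP-2, 9 passed the test, and their median log2 fold change was -3.93. FCRLA and PAX5, which encode B cell proteins, were at 0 in some steers of both injections and FCER2 in some given GLP-2, but no gene of the list was at 0 throughout a group. The part of these follicle genes in the SFRP5 difference was not tested.

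**Figure D2:**
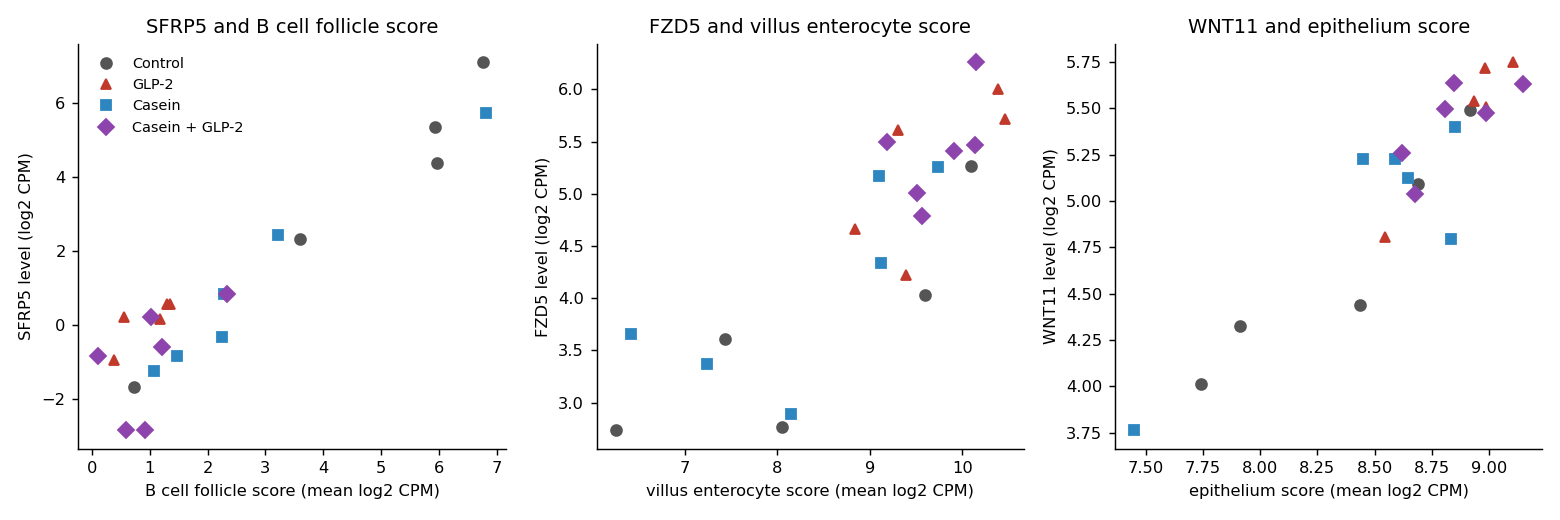
Level of SFRP5, FZD5 and WNT11 in each of 22 steers (vertical axes, log2 CPM) against the mean log2 CPM of B cell follicle, villus enterocyte and epithelium genes (horizontal axes), marked by treatment. The 4 steers with a follicle score of 5.93 to 6.82 hold the 4 highest SFRP5 levels, and FZD5 and WNT11 are low where the epithelial scores are low.

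Among the 18 steers outside those 4, SFRP5 still rose with the follicle score (Pearson r 0.75, Spearman rho 0.71). FZD5 moved with the villus enterocyte score (r 0.83 and rho 0.82 over 22 steers, r 0.83 without the 2 steers farthest from the median, 0.73 over the 18). It moved about as closely against the follicle score (r -0.81 and rho -0.84 over 22 steers, r -0.72 over the 18). WNT11 moved with the score of epithelial genes in general (r 0.93 and rho 0.86 over 22 steers, r 0.84 without the 2 farthest, 0.77 over the 18). The points share their library and its normalization, so these values are descriptions only. With GLP-2, the score of villus enterocyte genes was 9.71 ± 0.53 and with BSA 8.29 ± 1.34 (SD, n = 11 each). All 17 of its gene entries had a positive fold change, 2 passed the test, and the median log2 fold change was 0.97. Their summed level was 28904 to 125382 CPM with GLP-2 and 3282 to 84305 CPM with BSA. Of 9 epithelium genes, 3 passed and were higher, with a median log2 fold change of 0.52 and summed levels of 5532 to 11946 CPM with GLP-2 against 2341 to 8180 CPM with BSA. With the villus enterocyte score as a covariate, the log2 fold change of FZD5 was 0.54 and that of WNT11 0.33, with an adjusted p of 1.000 in edgeR for both. With the follicle score as a covariate they were 0.48 and 0.20, and without the 4 steers 0.86 and 0.33 (adjusted p = 0.322 and 0.369 in edgeR). Neither gene was called in any of these fits, and nor was any other gene. The calls were 0 of 13928 genes with either score and 0 of 14285 without the 4 steers. The scores differed with the injection themselves, so that a covariate and the injection share part of the spread, and the part of tissue composition was not tested.

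**Figure D3:**
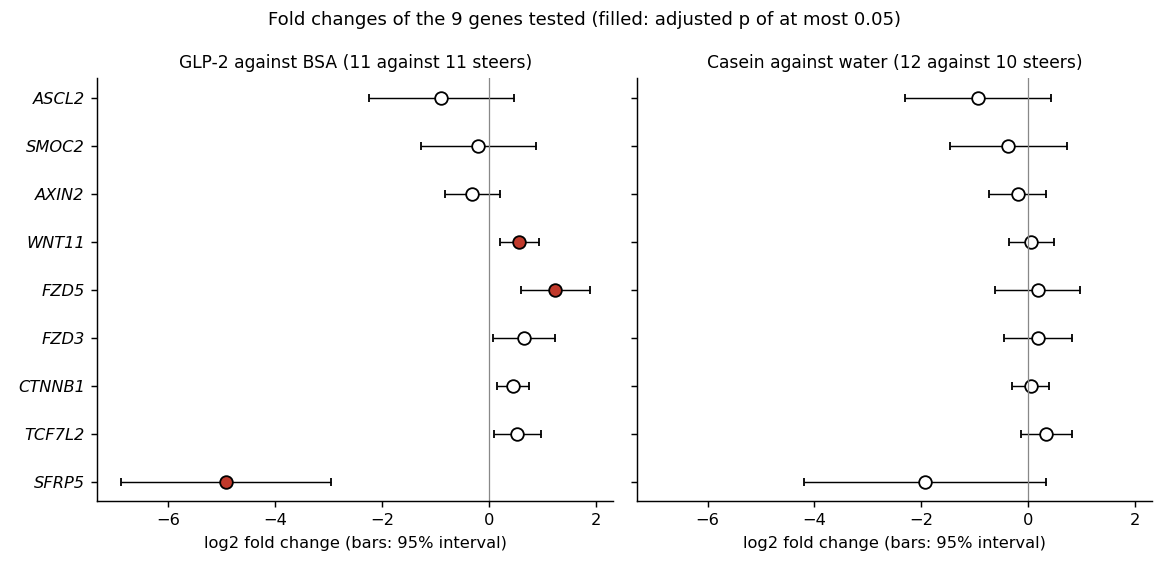
Log2 fold changes of the 9 genes tested (horizontal axis, with 95% intervals) for GLP-2 against BSA on the left and casein against water on the right. Filled points passed an adjusted p of at most 0.05: FZD5, WNT11 and SFRP5 for GLP-2 and no gene for casein.

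The remaining receptor and the transducers were higher with GLP-2 without passing the test. FZD3, a frizzled receptor on chromosome 8 at 10150817 to 10238564, averaged 11.3 ± 3.40 CPM under GLP-2 against 7.25 ± 3.07 CPM under BSA (SD, 11 steers per group). Its log2 fold change was 0.66 (standard error 0.30, adjusted p = 0.119 in edgeR). CTNNB1, on chromosome 22 at 13798884 to 13845848, was at 276, 331, 374, 427 and 437 CPM in the GLP-2 steers and at 172, 224, 316, 342 and 405 CPM in the control steers. With casein + GLP-2 it ran from 290 to 579 CPM (median 369), and with casein from 221 to 329 CPM (median 288). The ranges overlapped in both pairs of treatments, although 4 of 11 steers given GLP-2 exceeded every BSA steer. CTNNB1 averaged 386 ± 88.5 CPM under GLP-2 against 284 ± 65.9 CPM under BSA (SD, 11 steers per group), which was 0.45 higher on the log2 scale (standard error 0.16, adjusted p = 0.0523 in edgeR). The Wald test of DESeq2 called CTNNB1, with an adjusted p of 0.0252. TCF7L2, the nuclear partner of β-catenin on chromosome 26 at 33466276 to 33668370, averaged 45.9 ± 12.8 CPM under GLP-2 against 31.8 ± 13.9 CPM under BSA (SD, 11 steers per group). All 11 steers given GLP-2 were above the BSA median of 33.9 CPM. Its log2 fold change was 0.53 (standard error 0.23), and its adjusted p of 0.1005 in edgeR just missed a tendency. Without the 4 steers of high follicle score the log2 fold changes of CTNNB1, TCF7L2 and FZD3 were 0.30, 0.26 and 0.43 (adjusted p = 0.384, 0.524 and 0.394 in edgeR). With the follicle score as a covariate they were 0.15, 0.065 and 0.24, and with the villus enterocyte score 0.13, 0.040 and 0.51. No gene of all those tested was called in these fits.

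No stem cell gene was called between GLP-2 and BSA, and LGR5 could not be tested there. LGR5, a receptor for R-spondins and the best known marker of crypt base stem cells, lies on chromosome 5 at 1094237 to 1220337, with a small RNA gene annotated inside it on the same strand. It held 146 counts in all 22 libraries together and did not reach the count minimum in the pooled comparisons. Its count was 0 in 10 steers, which allows at most 0.124 to 0.331 CPM in them. In control steers it was at 0, 0.501, 0.776, 0.788 and 1.33 CPM, and in GLP-2 steers at 0, 0.0970, 0.205, 1.12 and 1.22 CPM. In casein block 3 it was at 3.14 CPM from 53 counts, and in the other 5 casein steers at 0. The casein + GLP-2 steers had at most 0.344 CPM. Without a filter on low counts the log2 fold change of LGR5 between GLP-2 and BSA was -1.04 (standard error 1.03, adjusted p = 0.505 in edgeR), and a difference was not detectable at this depth.

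ASCL2, the transcription factor of crypt stem cells, lies on chromosome 29 at 49311817 to 49313692. It was at 0, 2.48, 4.86, 5.02 and 10.5 CPM in control steers and 0.249, 2.13, 3.13, 4.19 and 9.18 CPM in GLP-2 steers, which overlap over nearly their whole range. The casein steers ran from 0.317 over a median of 3.96 to 5.90 CPM. The casein + GLP-2 steers were lower, from 0.0866 over 0.539 to 2.29 CPM. Among the pooled steers, only 1 of 11 given GLP-2 exceeded the BSA median of ASCL2, 4.31 CPM. Between GLP-2 and BSA the log2 fold change was -0.89 (standard error 0.69, adjusted p = 0.364 in edgeR).

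SMOC2, a secreted matrix protein found in the stem cell signature, lies on chromosome 9 at 102645195 to 102803012. The control steers held 2.73, 6.98, 11.5, 27.1 and 34.4 CPM and the GLP-2 steers 4.77, 9.80, 21.7, 26.6 and 105 CPM, with the highest value of the series in GLP-2 block 1. The casein steers ran from 10.3 over a median of 20.2 to 63.3 CPM. The casein + GLP-2 steers ran from 2.34 over 7.27 to 20.6 CPM. Its log2 fold change between GLP-2 and BSA was -0.19 (standard error 0.55, adjusted p = 0.821 in edgeR). AXIN2, the feedback target on chromosome 19 at 62212833 to 62240091, averaged 6.15 ± 1.90 CPM under GLP-2 against 7.53 ± 3.94 CPM under BSA (SD, 11 steers per group), with overlapping ranges. Its log2 fold change was -0.31 (standard error 0.27, adjusted p = 0.417 in edgeR), with a 95% interval of -0.83 to 0.21. A rise of AXIN2 beyond 0.21 on the log2 scale lies outside that interval, whereas the interval of ASCL2, -2.23 to 0.46, is wide.

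The stem cell genes and SFRP5 also varied most between steers of one treatment. The SD of log2 CPM within treatments was 2.10 for SFRP5, 1.65 for ASCL2, 1.30 for LGR5 and 1.23 for SMOC2, at the 99.5, 98.1, 92.4 and 90.3 percentiles of the genes tested. These percentiles cover genes of all levels. LGR5 was at 0 in 10 steers, so counting error weighs heavily in its SD and its correlations. That of CTNNB1 was 0.32, at the 21.8 percentile. Over 22 steers, the 6 pairs among LGR5, ASCL2, SMOC2 and SFRP5 all had a positive correlation, from 0.40 to 0.87 with ASCL2 and SMOC2 the closest. The 10 pairs among WNT11, FZD5, FZD3, CTNNB1 and TCF7L2 were also positive, from 0.44 to 0.76. All 20 pairs between these sets were negative, from -0.75 to -0.19, and all 20 stayed negative when treatment means were removed. The sets were drawn after the values were seen, and the points share libraries and their normalization. ASCL2 rose with the score of dividing cells (r 0.77) and with that of smooth muscle (r 0.79), and fell with that of villus enterocytes (r -0.71). Spearman's rho for these was 0.85, 0.79 and -0.80, and r without the 2 steers farthest from the median was 0.78, 0.73 and -0.68. None of 9 smooth muscle genes and none of 9 stroma genes passed between GLP-2 and BSA, with median log2 fold changes of -1.02 and -0.78, and 1 of 8 T cell genes passed and was lower. The summed smooth muscle level was 56.7 to 878 CPM with GLP-2 and 73.0 to 1485 CPM with BSA, and its part in these levels was not tested.

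With casein, no gene was called. Of 14096 genes tested between casein and water, 0% were called in edgeR, where 474 had an unadjusted p up to 0.05 and DESeq2 called 5, none of the 10 genes among them. The log2 fold changes of the 9 genes tested ran from -1.93 for SFRP5 (standard error 1.15) to 0.34 for TCF7L2 (standard error 0.24), and 0 of the 9 reached an unadjusted p of 0.05. Levels of SFRP5 with casein ran from 0 over a median of 0.597 to 52.9 CPM, and with water from 0.176 over 1.36 to 136 CPM. The SFRP5 difference depended on 2 steers. It was -4.29 without casein block 3 and -0.53 without control block 3, 2 of the steers of high follicle score. The paper, which used DESeq2 and a further steer, reported SFRP5 among its genes lower with casein, a call not made here. The 95% intervals were narrow enough to bound CTNNB1, whose log2 fold change of 0.04 had an interval of -0.30 to 0.39, and WNT11, 0.06 with -0.37 to 0.48. Those of ASCL2 (-0.94, interval -2.31 to 0.42) and SFRP5 (-1.93, interval -4.19 to 0.32) were wide.

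Fits of the 4 treatments on 15086 genes called no gene in any contrast in edgeR, so 0% of genes in the 5 contrasts. All 10 genes were tested there. Between GLP-2 and control, 2103 genes had an unadjusted p up to 0.05 and DESeq2 called 289, SFRP5 among them. The log2 fold changes were -5.30 for SFRP5 (standard error 1.46), 1.39 for FZD5 (standard error 0.50) and 0.73 for WNT11 (standard error 0.28). Between casein + GLP-2 and casein, 3637 genes had an unadjusted p up to 0.05 and DESeq2 called 891, again with SFRP5. SFRP5 was -4.09 on the log2 scale (standard error 1.31), FZD5 1.11 (standard error 0.46) and CTNNB1 0.53 (standard error 0.21). Without casein block 3, edgeR called 118 of 14976 genes between GLP-2 and control, SFRP5 among them. Without control block 2 it called 429 of 15383 genes there, SFRP5 and FZD5 among them.

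In the casein + GLP-2 treatment the stem cell genes stood at their lowest medians, apart from LGR5 which was at a median of 0 with casein. Against casein the log2 fold changes were -1.997 for ASCL2 (standard error 0.94) and -1.56 for SMOC2 (standard error 0.71), with adjusted p of 0.199 and 0.186 in edgeR. Against GLP-2 alone they were -2.12 and -1.80 with adjusted p of 0.995 in edgeR for both. These contrasts share the casein + GLP-2 steers. The lists of 9 smooth muscle and 9 stroma genes were low there too. Their median log2 fold changes were -1.83 and -1.38 against casein, and -1.70 and -1.21 against GLP-2. The part of these tissues in the stem cell values was not tested. For the casein × GLP-2 interaction, edgeR called 0 genes, 645 had an unadjusted p up to 0.05, and DESeq2 called 2. SMOC2 had the largest interaction of the 10 genes, -2.58 on the log2 scale (standard error 1.04, adjusted p = 0.996 in edgeR). The highest SMOC2 value was in GLP-2 block 1. The median interactions of the smooth muscle and stroma lists were -1.15 and -1.20. The adjusted p-values of casein + GLP-2 against GLP-2 were 0.995 and above for all 10 genes.

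Beyond the 10 genes, the pathway and stem cell lists held 62 other genes that could be tested between GLP-2 and BSA, of which 8 passed, 2 higher and 6 lower. This share was near that of all genes tested, of which 13.5% were called, 5.13% higher and 8.37% lower, so the 8 genes are given for their own values and say nothing particular of the lists. Their median log2 fold change was -0.04. LGR4, a receptor for R-spondins related to LGR5 and present at a far higher level, rose from 110 ± 42.5 to 186 ± 50.8 CPM (SD, 11 steers per group), or by 0.76 on the log2 scale (standard error 0.21). TLE4, a corepressor that binds TCF factors, rose by 0.50 on the same scale (standard error 0.17), whereas TLE1 of the same family fell by 0.57. FZD2, another frizzled receptor, fell by 2.50 from 5.01 ± 5.19 to 0.916 ± 1.11 CPM (SD, 11 steers per group). LEF1, a TCF-family factor that lymphocytes also use, fell by 1.54. Of the target genes, CD44, an adhesion receptor, fell by 0.97 and MYC, a growth regulator, fell by 0.77. CDCA7, a gene of dividing cells in the crypt stem cell list, fell by 1.80 (standard error 0.46). The adjusted p of these 8 genes in edgeR ran from 0.0218 to 0.0482.

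By role, against the 13.5% called over all genes, 2 of 12 receptors and coreceptors passed (1 in each direction), 1 of 4 ligands, 1 of 3 genes of the R-spondin arm, and 1 of 5 secreted inhibitors. None of 14 cytoplasmic transducers passed, although 11 of 14 were positive and 3, CTNNB1 among them, tended to be higher. Of 12 nuclear factors 3 passed, and of 9 feedback and target genes 2 passed, both lower. Of 10 crypt stem cell genes 1 passed, with 5 positive and 5 negative fold changes and a median of -0.08. Genes of dividing cells that are no part of the pathway were lower with GLP-2 as a list: 10 of 10 were negative, 6 passed, and the median log2 fold change was -1.08. Their summed level was 249 to 826 CPM with GLP-2 and 255 to 1377 CPM with BSA. With the follicle score or the villus enterocyte score as a covariate, 0 of all listed genes were called, and 0 without the 4 steers. Over all genes tested the calls were also 0 in each of these fits, so the loss is not particular to the lists. Between casein and water 0 of 63 other listed genes passed.

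**Figure D4:**
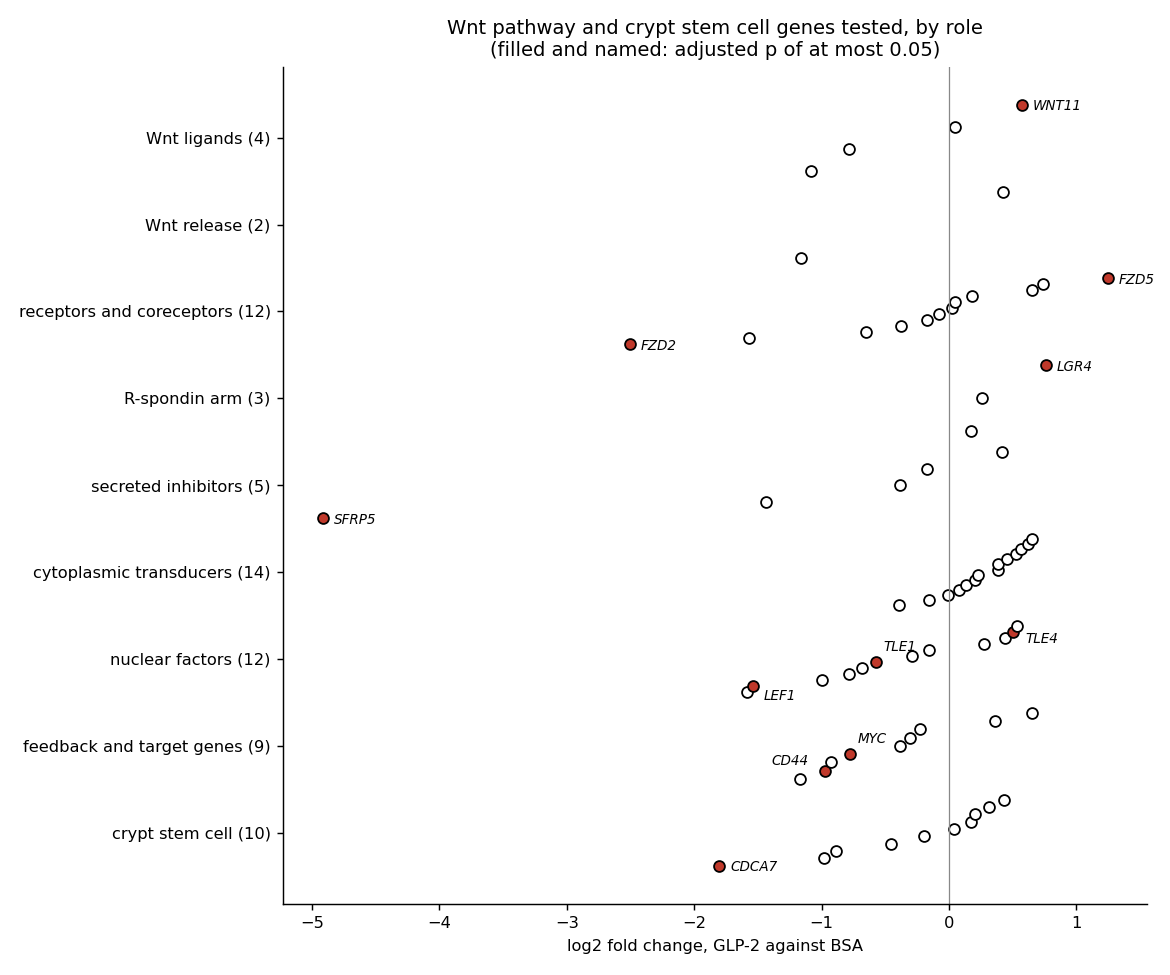
Log2 fold changes between GLP-2 and BSA (horizontal axis) of the listed Wnt pathway and crypt stem cell genes that were tested, by role, with the number of genes in brackets. Filled and named points passed an adjusted p of at most 0.05: 4 lie above 0 and 7 below.

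**Figure D5:**
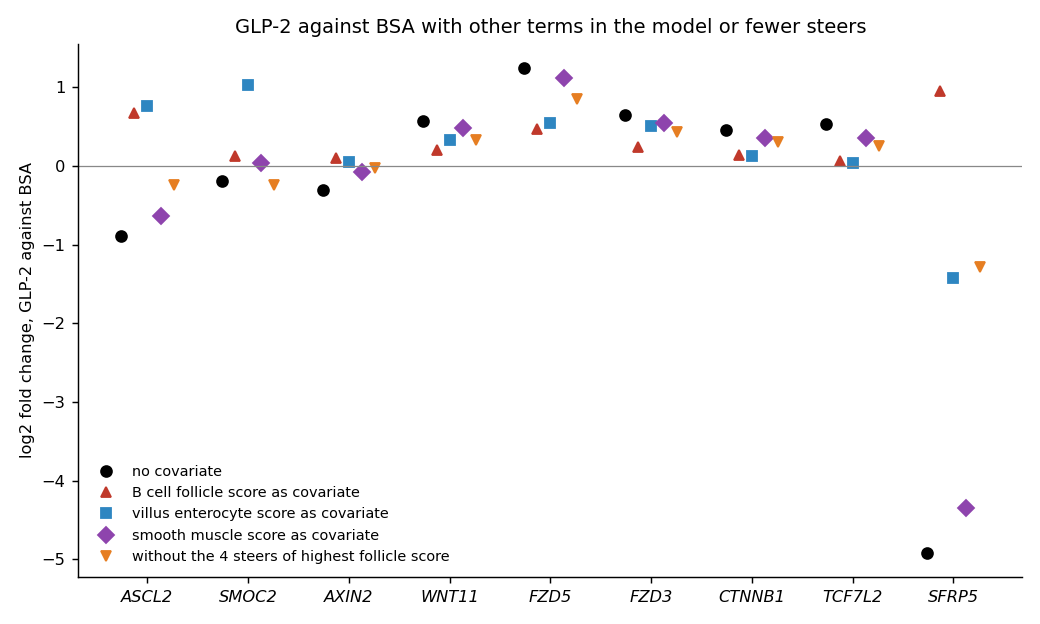
Log2 fold changes of the 9 genes between GLP-2 and BSA (vertical axis) in the main comparison, with each of 3 marker scores as a covariate, and without the 4 steers of highest follicle score. SFRP5 went from -4.92 to 0.95 with the follicle score, and FZD5, WNT11, FZD3, CTNNB1 and TCF7L2 stayed above 0 in all 5. None of the 9 genes was called with the follicle or villus enterocyte score, or without the 4 steers.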

How the data were processed

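Poly(A)-selected, strand-specific RNA-seq of scraped jejunal mucosa was used for 22 steers. A further GLP-2 steer of the study was not analysed here. The authors aligned reads to ARS-UCD1.2 with HISAT2 2.0.5, counted them per gene with featureCounts 1.5.0-p3 and deposited raw counts, and the authors also deposited FPKM values, which here follow library sizes scaled much as TMM does. The labels also name StringTie 1.3.3b and DESeq2 1.20. Whether counting used strand is not given in the sources used here.

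Counts were analysed in R 4.3.3 with edgeR 4.0.16 (filterByExpr with a minimum count of 10, TMM, quasi-likelihood test, Benjamini-Hochberg adjustment over all genes tested, threshold 0.05, tendency up to 0.1), with DESeq2 1.42.0 and limma 3.58.1 as alternatives. CPM uses TMM, and log2 CPM a prior count of 2. Marker scores are mean log2 CPM over a list. Intervals are normal 95% intervals.

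The 10 genes and all lists were chosen with earlier results of these data known. Of the listed pathway and stem cell symbols, 102 matched and 3 did not. Named were the 10 genes, other listed genes past the threshold, the 3 genes with a symbol most correlated with each, and marker genes beside a result, except 1 gene that is not reported here. The fits were tested on simulated data. Alternatives were other normalizations, filters, tests, covariates and thresholds, the replicate block, and leaving out each steer. Leaving out the 4 steers of high follicle score (above 5) was chosen after seeing the data. Replicate numbers are blocks by body weight. The study assigned treatments at random within these blocks. After removal of treatment means, 30 same-block pairs of steers had a mean correlation of 0.0331 (-0.464 to 0.387) and 151 other pairs -0.0064. These values cannot exclude an effect of the block. Block numbers entered only an alternative fit here, which called fewer genes.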

Additional observations from a re-analysis of the deposited data

Results flagged for a closer look

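Of 40 sets of a gene in a treatment, 5 had a steer that lay far from the others by Dixon's test. Chance marks about 1 in 20 sets of normal values, a rate that does not hold for sets with counts near 0. LGR5 was at 3.14 CPM (53 counts) in casein block 3 and at 0 in the other casein steers, so any count in that steer would be marked. FZD3 was at 0.549 CPM (7 counts) in control block 3, while the other control steers held 6.05 to 10.1 CPM. WNT11 was at 27.9 CPM in GLP-2 block 1 against 45.3 to 53.6 CPM in the other GLP-2 steers, and at 13.4 CPM in casein block 3 against 27.6 to 42.0 CPM in the other casein steers. SFRP5 was at 0.381 CPM (5 counts) in GLP-2 block 6, where the others held 0.986 to 1.36 CPM. Casein block 3 and control block 3 are among the 4 steers of high follicle score.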

How the results depend on the processing

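Between GLP-2 and BSA, 3 of the 10 genes were called in the main comparison, 1 with the replicate block as a covariate, 0 with the follicle or the villus enterocyte score as a covariate, and 0 without the 4 steers of high follicle score. Leaving out 1 steer gave 2 (for example without control block 1) to 5 (without casein block 6). The 1 call with the replicate block was SFRP5 (adjusted p = 0.0482 in edgeR), where FZD5 was at 0.0509 and WNT11 at 0.0543, and 689 genes were called in place of 1881. DESeq2 called 2999 genes, an adjusted p of at most 0.1 gave 3633, the smooth muscle score 687, the follicle score, the villus score or leaving out the 4 steers 0 (354, 460 and 1927 at an unadjusted p up to 0.05), and leaving out 1 steer gave 634 (without casein + GLP-2 block 3) to 3516 (without control block 2). Of 22 steers, 6 correlated best with a steer of their own block, which cannot decide whether steers of a block were alike. Of the listed pathway and stem cell genes, 11 were called, 3 with the replicate block, 17 at an adjusted p of at most 0.1, 0 with the follicle score, 0 with the villus score, 6 with the smooth muscle score, 0 without the 4 steers, and 5 (without casein + GLP-2 block 3) to 21 (without control block 2) when 1 steer was left out. For GLP-2 against control, DESeq2 called 1 and leaving out 1 steer gave 0 to 2, and for casein + GLP-2 against casein DESeq2 called 1. Directions turned between GLP-2 and BSA with the follicle score for ASCL2 (0.68), SMOC2 (0.13), AXIN2 (0.11) and SFRP5 (0.95), with the villus score for ASCL2 (0.77), SMOC2 (1.04) and AXIN2 (0.049), and with the smooth muscle score for SMOC2 (0.036). Without 1 steer SMOC2 ran from -0.97 to 0.078. Between casein and water they turned with the follicle score for CTNNB1 (-0.069) and WNT11 (-0.11), and with the smooth muscle score for SMOC2 (0.33), AXIN2 (0.015), CTNNB1 (-0.076), FZD5 (-0.074) and WNT11 (-0.033). Without the 4 steers they turned for CTNNB1 (-0.065), FZD5 (-0.11) and WNT11 (-0.054). Without 1 steer WNT11 ran from -0.026 to 0.14, CTNNB1 from -0.086 to 0.089, AXIN2 from -0.34 to 0.030, SMOC2 from -0.73 to 0.24 and FZD5 from -0.025 to 0.38. None of these casein values passed the test. The causes were not tested. No gene of the 10 was called between casein and water in any of the 37 alternatives. FZD5 and SFRP5 kept their call in 22 of 22 fits without 1 steer, WNT11 in 6, and CTNNB1 and TCF7L2 were called in 6 and 1. Counts near 0 limit LGR5, and at 11 steers a group spread between animals limits ASCL2 and SMOC2.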

Other observations

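The genes whose log2 CPM over 22 steers was most like that of each of the 10 genes are given as a description, since the points share library and normalization. For SFRP5 they included TCTN1 and SWAP70 (Pearson r 0.95 and 0.95), and over the 18 steers outside the 4 of high follicle score r was 0.85 and 0.81. For FZD5 they were ATP9A, ITPRIPL2 and HEATR5A (r 0.94, 0.94 and 0.94). For WNT11 they were SEMA4G, CLDN7, a claudin of epithelial junctions, and GSTK1 (r 0.91, 0.91 and 0.90). For CTNNB1 they were BCHE, CYFIP1 and MUT. For TCF7L2 they were CFTR, a chloride channel, SLC2A2, a glucose transporter, and PLB1, a brush border lipase, which over the 18 steers had r of 0.87, 0.86 and 0.83. For ASCL2 they were PRDX4, RBBP9 and DTX4 (r 0.93, 0.92 and 0.92), and for SMOC2 CFP, PNLIPRP2 and PSRC1 (r 0.94, 0.89 and 0.88). For FZD3 they were GRAMD1C, GXYLT1 and PHKA1, whose r fell from 0.91, 0.90 and 0.90 to 0.76, 0.73 and 0.54 without the 2 steers farthest from the median. For AXIN2 they were KLHL20, MACC1 and ANGPTL2, and for LGR5 TNFRSF11A, FAM107B and USP14, at r of 0.82 or less.

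Of the listed genes, 31 were not tested between GLP-2 and BSA, LGR5 among them. WNT3, WNT3A and WNT7A had 0 counts in all 22 libraries, and were singled out after their values were seen.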
